A study of Mus musculus with 8 samples.

Results

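The chemokine family was followed in dorsal mouse skin as the set of genes whose symbol is Ccl, Cxcl, Ccr, Cxcr or Ackr with a number, together with Cx3cl1 and Cx3cr1. The rule found 51 members among the 18770 genes listed, 31 ligands and 20 receptors. The comparison asked which of them differed in mRNA level between skin given alpinetin (AP), a plant flavonoid, and skin given vehicle (VC). All animals were wildtype C57BL/6 male mice (C57BL/6J in the authors' methods) aged 7 to 8 weeks, with 4 libraries per group, and hair growth had been started by depilation of the back. The AP group received 3 mg/ml alpinetin in 20 µl of 65% ethanol on the skin daily from 24 h after depilation, and the VC group received 65% ethanol alone. At D4 the skin was sampled, and RNA came from the part left once the epidermis between follicles had been taken off, that is dermis and follicles.

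Chemokines are small secreted proteins that steer migrating cells along gradients, and they are sorted into CC, CXC and CX3C types by the spacing of their first cysteines. They act on receptors coupled to inhibitory G proteins, while atypical receptors bind chemokines without that coupling and take them up, which shapes the gradient. In skin they place Langerhans cells, T cells, mast cells and macrophages around the hair follicle and are released by keratinocytes, fibroblasts, endothelium and leukocytes.

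Values are normalized counts, that is reads per gene divided by a size factor of each library, and a gene's 4 values per group are given in library order. The libraries, numbered VC.1 to VC.4 for vehicle and AP.1 to AP.4 for alpinetin, held 6454563 to 7264151 reads on genes with vehicle and 8507783 to 11190113 with alpinetin. Mitochondrially encoded genes took 48.4% ± 5.81 (SD, n = 4) of these reads in VC libraries and 8.66% ± 2.63 (SD, n = 4) in AP libraries, so that 3080758 to 3762217 VC reads and 7561598 to 10594787 AP reads were left for all other genes. The part of this gap in depth in the results for rare members was not tested beyond drawing the reads down to an equal number.

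A member was taken to have enough reads if 4 or more of the 8 libraries reached 3 normalized counts. This held for 45 of the 51 members, 28 ligands and 17 receptors. A single read gave 1.37 to 1.88 normalized counts in VC libraries and 0.498 to 0.725 in AP libraries. The mark of 3 therefore took fewer reads in a VC library than in an AP library. The stricter mark of at least 10 reads in at least 4 libraries was met by 37 members. Ccl4, Ccl28, Cxcl3, Cxcl5, Ccr4, Ccr9, Ccr10 and Cxcr2 lay between these marks and were tested on few reads. Cxcl1, Ccr4, Ccr9 and Cxcr6 passed with at most 1 VC library at the filter, so they were tested because of their AP values, and counts over the tested members lean towards AP to that extent. In 10 of the tested members at least 1 VC library had 0 reads, against 1 tested member with an AP library at 0.

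The other 6 members were below the filter and were not tested. Ccl20, which draws cells carrying its receptor Ccr6 towards epithelium, had 0 reads in every VC library and 0, 10, 6 and 7 reads in the AP libraries. Ccr6 had 0 reads in every VC library and 6, 2, 8 and 1 reads in the AP libraries. Ccr8, a receptor of skin T cells, likewise had 0 reads in the VC libraries and 2, 2, 3 and 1 reads in the AP libraries. A count of 0 reads allows up to 3, which corresponded to 4.10 to 5.63 normalized counts with vehicle, and the highest AP value of these 3 genes was 5.39. Taken library by library, most of these values therefore lay within that limit, and no fold is given. Ccr6 and Ccr8 had reads in every AP library and in no VC library, but this group difference was not tested. Ccl1 had at most 8 reads in any library, Cxcr1 at most 9 and Cxcl17 at most 7.

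By limma's moderated test on log2(value + 1), with Benjamini-Hochberg adjustment over all 15964 genes tested, 4 of the 45 members were higher in the AP group at an adjusted p under 0.05, where 6.33% of all genes were. They were Ackr3, Cxcl1, Cxcl2 and Cx3cl1. Cxcr4 was the 1 member that was lower, where 4.0% of all genes were lower. An unadjusted p under 0.01 with a fold change over 1.5 took in 6 higher members (8.26% of all genes), adding Ccr4 and Ackr1, and again Cxcr4 as lower (5.32% of all genes). The ranges of the groups did not overlap in 5 members with higher AP values, against 10.3% of all genes, and in 1 member with lower AP values, against 8.91%. As shares of the members tested, these counts were 8.89% and 2.22% at the adjusted threshold and 11.1% and 2.22% for ranges apart. Cxcl1 in these counts, Ccr4 in the unadjusted count and Cxcr6 among the ranges apart were tested because of their AP values. The median log2 fold change was 0.12 over the members tested and 0.06 over all genes tested, with 26 members above 0 and 19 below. The median of the members was below 0 with reads drawn down (-0.09) and without AP.1 (-0.03).

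Scaling by total reads, mitochondrial ones included, moved the median of all genes by 0.84 on the log2 scale and turned the sign of 13 members that were below 0, while the other 3 scalings turned none. With that scaling 53.7% of all genes and 19 members were called higher, namely the 4 above and Ccl7, Ccl22, Cxcl12, Cxcl13, Cxcl14, Cxcl16, Cx3cr1, Ccr2, Ccr4, Ccr9, Cxcr2, Cxcr6, Ackr1, Ackr2 and Ackr4. Of the genes called at the adjusted threshold, 61.3% were higher in the AP group with the deposited scaling, 49.9% with upper-quartile factors and 99.3% with total reads.

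**Figure D1:**
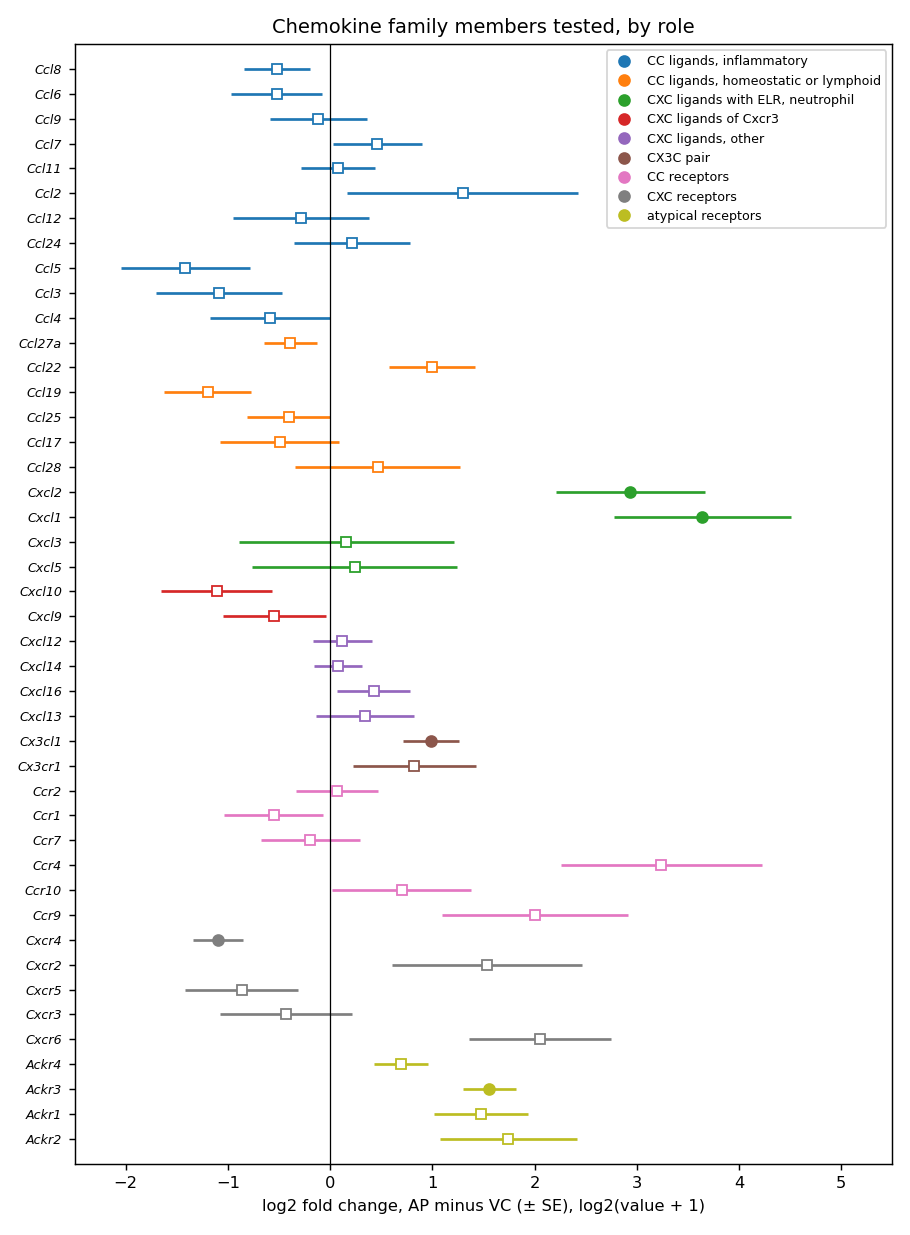
Log2 fold change (horizontal axis, AP minus VC on log2(value + 1), with SE) of 44 of the 45 members tested, coloured by role and ordered within each role by mean level. Filled circles mark the 5 members with an adjusted p under 0.05 and open squares the others; scaling by total reads would move the median of all genes by 0.84 to the right and turn 12 of the open squares from below to above 0.

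Of the 4 tested CXC ligands that carry the ELR motif, attract neutrophils and act on Cxcr2, Cxcl1 and Cxcl2 were called. Cxcl1 had VC values of 0, 0, 17.8 and 1.88 and AP values of 43.5, 30.2, 28.4 and 30.8. The groups did not overlap, and VC.3, with 13 reads, was the only VC library with more than 1 read, so Cxcl1 passed the filter through its AP values. On the log2 scale Cxcl1 rose by 3.64 (SE 0.87, adjusted p = 0.0275). Cxcl2 had VC values of 0, 10.3, 2.73 and 7.50 and AP values of 38.4, 33.4, 21.9 and 38.6. Its groups were also apart, on 0 to 7 reads in VC libraries and 44 to 62 in AP libraries. Cxcl2 rose by 2.94 (SE 0.73, adjusted p = 0.0312).

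Both calls were near the threshold, with adjusted p between 0.00210 and 0.0816 for Cxcl1 and between 4.55e-04 and 0.0891 for Cxcl2 over the 21 alternatives. That of Cxcl1 was lost with edgeR (0.0697), without the intensity trend (0.0563), without VC.1 (0.0552), without AP.2 (0.0691), AP.3 (0.0816) or AP.4 (0.0749). That of Cxcl2 was lost without the trend (0.0563), without VC.3 (0.0514), without AP.1 (0.0521), AP.2 (0.0811), AP.3 (0.0792) or AP.4 (0.0891). Over the alternatives the log2 fold change of Cxcl1 ran from 2.26 to 4.57, with 2.62 in edgeR and the highest value without VC.3. That of Cxcl2 ran from 2.01 to 3.58, with 2.23 without VC.1. The neighbouring ligands Cxcl3 and Cxcl5 had at most 14 and 8 reads in any library, with log2 fold changes of 0.16 (SE 1.05) and 0.24 (SE 1.0), and Cxcl3 holds 5.84% of the 50-base words of Cxcl2, so a few reads may be split between them. In all 4 ligands the value was above 0, but edgeR and DESeq2 put Cxcl3 and Cxcl5 below 0, as did some fits with 1 library left out. Cxcl3 was also below 0 with 5 in place of 1 added before the log, and Cxcl5 with voom. The AP mean was below the VC mean in Cxcl3 (3.59 against 5.68) and in Cxcl5 (2.74 against 3.16).

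Cxcl1, Cxcl2 and Cxcl3 lie close together on chromosome 5, and their promoters are shown because the pair that rose carries the same letters as the neighbour that was not called. Of the 51 members, 38 had promoter sequences in the RefSeq table (build GRCm38.p6), 42 promoters in all, searched on both strands over the 250 bases before the start. The kappa B consensus, the binding motif of NF-kB, was found in 8 of them (19%) and in 3.90% of all 32851 promoters. The AP-1 motif TGANTCA was found in 4 (all promoters 6.75%), the interferon-response motif GAAANNGAAA in 3 (2.98%) and TATAAA in 11 (12.4%). The capitals mark GGGAATTTCCC, where the kappa B match on the forward strand overlaps that on the reverse strand, with positions counted back from the RefSeq start. Each sequence stops at the earlier of the starts in RefSeq and GENCODE M21, which left out the last 4 bases before the RefSeq start for Cxcl1, 28 for Cxcl2 and 0 for Cxcl3.
Cxcl1 (chr5:90890995-90891240, plus strand, the match 71 to 61 bases before the RefSeq start): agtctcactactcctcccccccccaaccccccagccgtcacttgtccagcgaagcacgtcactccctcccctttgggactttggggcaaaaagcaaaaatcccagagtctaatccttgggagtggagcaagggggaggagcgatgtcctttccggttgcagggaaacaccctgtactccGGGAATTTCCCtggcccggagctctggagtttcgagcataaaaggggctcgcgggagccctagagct
Cxcl2 (chr5:90903649-90903870, plus strand, the match 97 to 87 bases before the RefSeq start): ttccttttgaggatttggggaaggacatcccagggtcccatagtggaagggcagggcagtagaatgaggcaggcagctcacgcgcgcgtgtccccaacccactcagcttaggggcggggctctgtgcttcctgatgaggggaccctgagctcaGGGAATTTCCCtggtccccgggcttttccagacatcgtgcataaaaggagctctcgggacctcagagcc
Cxcl3 (chr5:90785851-90786100, plus strand, the match 73 to 63 bases before the RefSeq start): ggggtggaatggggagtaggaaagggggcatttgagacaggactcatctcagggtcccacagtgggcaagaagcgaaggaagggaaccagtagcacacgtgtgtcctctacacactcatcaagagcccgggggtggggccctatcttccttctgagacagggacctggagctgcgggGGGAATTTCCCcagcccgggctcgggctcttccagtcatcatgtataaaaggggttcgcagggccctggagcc
A match is a description of the letters, and the other members with a kappa B match were Ccl9, Ccl20, Cxcl10, Ccr6 and Ackr2. Ccl20 and Ccr6 were not tested and the other 3 did not pass the adjusted threshold.

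Cx3cl1 encodes fractalkine, a membrane-bound ligand of epithelium and endothelium that can be shed (chr8:94772009-94782427). It had VC values of 34.6, 35.5, 36.9 and 50.6 and AP values of 64.5, 77.6, 84.7 and 87.3. Every AP library was above every VC library, and VC.4 was the highest of its group. Cx3cl1 rose by 0.99 (SE 0.27, adjusted p = 0.0430), 1.99 times the VC mean. The call held in 12 of 21 alternatives and was lost with voom (0.0575), without a filter (0.0565), with reads drawn down (0.0669), without VC.1 (0.0656), VC.2 (0.0685) or VC.3 (0.0626) and without AP.2 (0.104), AP.3 (0.138) or AP.4 (0.124), with adjusted p from 0.00108 to 0.138 over all of them. The log2 fold change stayed between 0.93 and 1.11 whichever library was left out. Its receptor Cx3cr1, carried by macrophages and some T cells, had VC values of 9.10, 2.96, 2.73 and 11.3 and AP values of 12.3, 7.01, 9.96 and 14.3. These ranges overlapped and the difference of 0.82 (SE 0.60, adjusted p = 0.380) did not pass, except with total reads as the scale (0.0294).

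The inflammatory CC ligands gave most of the chemokine reads, and none of the 11 tested passed. Ccl8, a ligand made by skin macrophages, had VC values of 2496, 1355, 1208 and 3362 and AP values of 1793, 1665, 1021 and 1061. VC.1 and VC.4 were high, and the groups overlapped (difference -0.52, SE 0.32, adjusted p = 0.298). Ccl6 had VC values of 1803, 632, 313 and 1071 and AP values of 847, 559, 369.7 and 511, with the same VC libraries on top and a difference of -0.52 (SE 0.45, adjusted p = 0.456). Both differences turned positive when total reads set the scale. Per kb of exon, the mean level of Ccl8 was 4120.0 normalized counts with vehicle and 2710.4 with alpinetin, above every other member, followed by Ccl6 with 532 and 318. Together with Ccl9, these genes made up 46.2% to 73.9% of the normalized counts of all ligands in VC libraries and 47.9% to 56.9% in AP libraries.

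Of the other inflammatory CC ligands, Ccl5, which attracts T cells, had VC values of 34.6, 5.91, 28.7 and 48.8 and AP values of 13.1, 8.63, 4.98 and 7.87. VC.2 lay within the AP range, and the difference of -1.41 (SE 0.63, adjusted p = 0.158) was called by DESeq2 and without VC.2 but in no other fit. Ccl3 and Ccl4, attractants of macrophages and T cells, differed by -1.09 (SE 0.61) and -0.59 (SE 0.59), the latter above 0 when total reads set the scale. The monocyte attractants Ccl2, Ccl7 and Ccl12 and the eosinophil attractants Ccl11 and Ccl24 had overlapping groups, with adjusted p from 0.465 to 0.904. The median over the class was -0.28, with 4 genes above 0 and 7 below, against 0.06 over all genes, and it turned to 0.54 with total reads as the scale, with 9 genes above 0. It was also above 0, at 0.08, without VC.4, and was -0.64 without VC.3.

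The 6 homeostatic or lymphoid CC ligands gave no call, and their median was -0.40, or 0.42 over the 5 of them tested when total reads set the scale. Ccl27a, a keratinocyte ligand of Ccr10, had VC values of 271, 127, 142 and 191 and AP values of 147, 102, 139.5 and 150.2. The groups overlapped, the difference was -0.39 (SE 0.26, adjusted p = 0.337) and above 0 with total reads as the scale, and 28.4% of its 50-base words also occur in Gm20878, so its reads are uncertain. Ccl22, a dendritic cell ligand of Ccr4, had VC values of 41.8, 41.4, 47.8 and 88.1 and AP values of 55.8, 102, 89.7 and 236. AP.4 was the highest, AP.1 lay below VC.4, and the difference of 1.0 (SE 0.42, adjusted p = 0.138) did not pass, except with total reads as the scale (0.00421). Ccl19, a ligand of Ccr7, had VC values of 52.8, 48.8, 49.2 and 75.0 and AP values of 55.1, 19.9, 14.9 and 18.6. AP.1 lay inside the VC range, and the difference of -1.20 (SE 0.43, adjusted p = 0.0866) did not pass over all 8 libraries. Ccl19 was called in the fit without AP.1, but 52.0% of its words are shared with Gm2564. The other Ccr4 ligand, Ccl17, differed by -0.49 (SE 0.58), and Ccl25 and Ccl28 by -0.41 (SE 0.41) and 0.47 (SE 0.80), where total reads put Ccl17 and Ccl25 above 0 and the fit without VC.1 put Ccl28 below 0.

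The 2 interferon-induced ligands of Cxcr3 that were listed did not pass either, and their median of -0.83 became 0.02 with total reads as the scale. Cxcl10 had VC values of 20, 111, 42.3 and 126 and AP values of 29.0, 39.4, 22.4 and 20. VC.2, VC.3 and VC.4 stood above every AP library and VC.1 did not (difference -1.11, SE 0.54, adjusted p = 0.193; called by DESeq2 only, 0.0387). Cxcl9 had VC values of 30.9, 41.4, 28.7 and 99.4 and AP values of 54.4, 28.6, 35.9 and 13.6, a difference of -0.55 (SE 0.50, adjusted p = 0.491) with overlap that total reads put above 0. Exons of Cxcl10 share 5.91% of their bases with Art3 on the opposite strand. Larger opposite-strand overlaps were 18.3% for Cxcl16 (Zmynd15), 18.8% for Ccr9 (AC165425.1) and 8.9% for Ackr4 (Acad11). The strand setting of the counting was not known, so reads of these genes may be shared.

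Of the remaining CXC ligands, Cxcl12, the fibroblast-derived ligand of Cxcr4 and Ackr3, had VC values of 571, 479, 539 and 953 and AP values of 738, 1103, 543 and 443. The groups overlapped (difference 0.12, SE 0.29, adjusted p = 0.810), and the difference was below 0 without AP.2 and 0.99 (0.0144) with total reads as the scale. Cxcl14, made by epithelium and fibroblasts, had VC values of 569, 638, 646 and 328 and AP values of 694, 649, 451 and 471, with a difference of 0.08 (SE 0.24, adjusted p = 0.851) that was below 0 without VC.4 or without AP.1 and 0.95 (0.0175) with total reads as the scale. The membrane-bound Cxcr6 ligand Cxcl16 and the B cell attractant Cxcl13 differed by 0.43 (SE 0.36) and 0.34 (SE 0.48), and Cxcl13 was below 0 without VC.3.

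**Figure D2:**
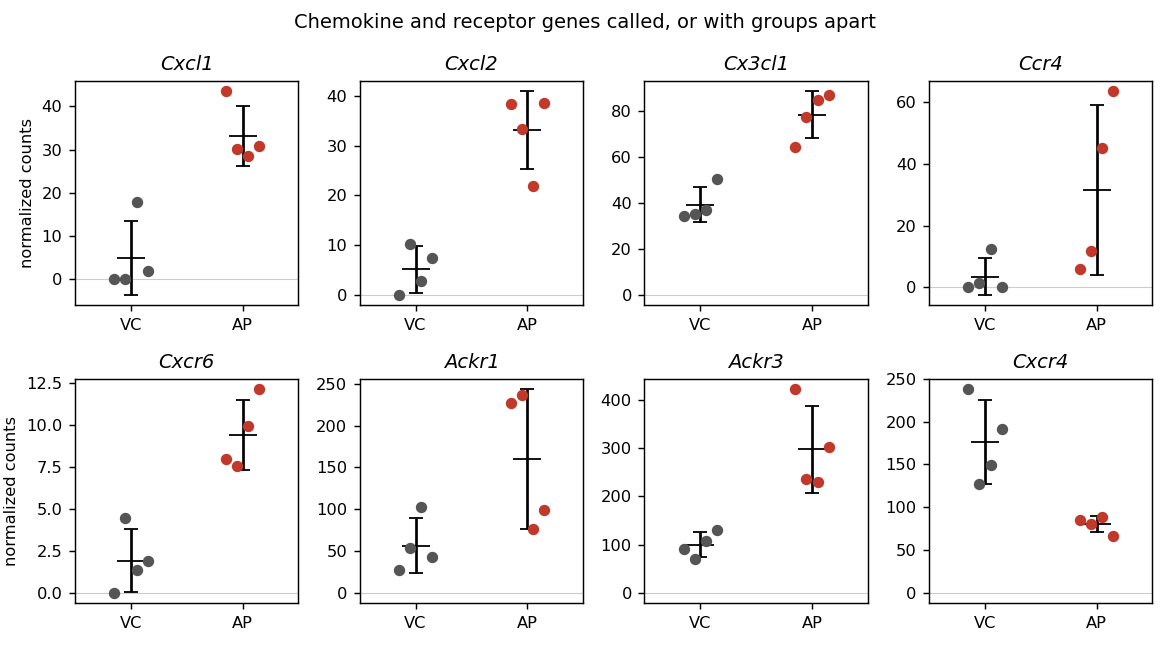
Normalized counts (vertical axis) of 8 members in each VC library (grey) and AP library (red), with the mean and SD of each group as black bars. The groups are apart in Cxcl1, Cxcl2, Cx3cl1, Cxcr6, Ackr3 and Cxcr4 and overlap in Ccr4 and Ackr1; Cxcr4 alone is lower in the AP group, by 1.10 on the log2 scale, and by 0.23 with no call when total reads set the scale.

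Among the 7 CC receptors tested, none passed the adjusted threshold. Ccr2, the monocyte receptor of Ccl2, had VC values of 166, 85.7, 69.6 and 274 and AP values of 197, 108, 150.0 and 103, with overlap and a difference of 0.07 (SE 0.40, adjusted p = 0.927) that had no stable sign. It was below 0 with edgeR, with DESeq2, with reads drawn down and without VC.2, VC.3 or AP.1, and was 0.93 (0.0438) with total reads as the scale. Ccr1, Ccr7 and Ccr10 differed by -0.55 (SE 0.48), -0.20 (SE 0.48) and 0.70 (SE 0.68), all above 0 with total reads as the scale and Ccr7 also without VC.4. Ccr9, the receptor of Ccl25, differed by 2.0 (SE 0.91, adjusted p = 0.163).

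Ccr4, the receptor of Ccl17 and Ccl22 on skin-homing T cells, had VC values of 0, 1.48, 12.3 and 0 and AP values of 5.80, 11.9, 45.3 and 63.7. AP.3 and AP.4 were far above the rest, while AP.1 and AP.2 lay below VC.3. Its log2 fold change of 3.24 (SE 0.99) met the unadjusted criteria but not the adjusted one (adjusted p = 0.0569). DESeq2 called it (0.0230), as did the fits without VC.3 (0.0299) and without AP.1 (0.0365) and scaling by total reads (0.00727), in a range from 0.00727 to 0.170 over its 20 alternatives.

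Among the 5 CXC receptors tested, Cxcr4, the receptor of Cxcl12, was the member that fell. It had VC values of 238, 127, 149 and 191 and AP values of 84.9, 80.9, 88.2 and 66.5. Every AP library was below every VC library, and the AP values lay close together. Cxcr4 fell by 1.10 (SE 0.24, adjusted p = 0.0222), from 176 ± 49.1 to 80.1 ± 9.54 normalized counts (SD, n = 4 each). The call was lost without AP.2 (0.0553), AP.3 (0.0626) or AP.4 (0.0667) and with total reads as the scale, where the difference was -0.23 (adjusted p = 0.432, the highest of a range that began at 3.21e-04). Whichever library was left out, the difference lay between -1.24 and -0.94. In bulk tissue, fewer cells that carry a receptor and less RNA per cell cannot be told apart.

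Cxcr6, the receptor of Cxcl16 on resident T cells, had VC values of 0, 4.43, 1.37 and 1.88 and AP values of 7.98, 7.55, 9.96 and 12.2. The groups did not overlap, on 0 to 3 reads in VC libraries and 11 to 20 in AP libraries, but the difference of 2.06 (SE 0.69, adjusted p = 0.0753) did not pass, except with total reads as the scale (0.00595). Cxcr2, the receptor of Cxcl1 and Cxcl2 on neutrophils, had VC values of 9.10, 13.3, 0 and 9.38 and AP values of 3.63, 19.4, 35.9 and 29.3. AP.1 lay inside the VC range and the other AP libraries above it (difference 1.53, SE 0.93, adjusted p = 0.285), and without VC.3, which had 0 reads, the difference was 0.66. Total reads as the scale gave 2.30 (0.0423). Cxcr3 and Cxcr5 differed by -0.43 (SE 0.64) and -0.86 (SE 0.55), Cxcr3 being above 0 with total reads as the scale.

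The 4 atypical receptors were all above 0, in the deposited values and under every alternative scaling, with a median of 1.52. Ackr3, which binds Cxcl12 and removes it from the tissue (chr1:90203980-90216751), was the 1 called. It had VC values of 91.0, 70.9, 107 and 131 and AP values of 424, 236, 229.7 and 303. The lowest AP library was well above the highest VC library. Ackr3 rose by 1.56 (SE 0.26, adjusted p = 0.00896), from 99.9 ± 25.5 to 298 ± 90.1 normalized counts (SD, n = 4 each). It was the member called in all 21 alternatives, each library left out included, with adjusted p from 4.85e-06 to 0.0337.

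Ackr1, the endothelial carrier of many inflammatory chemokines, had VC values of 27.3, 53.2, 102 and 43.1 and AP values of 227, 237, 76.2 and 98.7. AP.1 and AP.2 stood above the rest, and VC.3 lay above AP.3 and AP.4. Its log2 fold change of 1.48 (SE 0.46) met the unadjusted criteria only (adjusted p = 0.0608), while DESeq2 (0.0160), the fit without VC.3 (0.0368) and scaling by total reads (0.00365) called it, in a range from 0.00365 to 0.158. Exons of Cadm3 on the same strand cover 25.7% of its exon bases, so reads may be shared, and Cadm3 itself differed by 0.70 (SE 0.26, adjusted p = 0.100). Ackr4, which takes up Ccl19 and Ccl25, had VC values of 155, 299, 156 and 152 and AP values of 343, 201, 301 and 361. VC.2 overlapped the AP range, and the difference of 0.69 (SE 0.27, adjusted p = 0.108) was called without VC.2 (0.0356) and with total reads as the scale (0.00200). Ackr2, a scavenger of inflammatory CC ligands, differed by 1.74 (SE 0.67, adjusted p = 0.109), with VC.2 and VC.3 above AP.2.

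Cxcl12 and its receptors could be set side by side within each library, where no scaling enters. Reads of Ackr3 were 0.382, 0.558, 0.716 and 0.686 times those of Cxcr4 in the VC libraries, in order, and 4.99, 2.91, 2.60 and 4.56 times in the AP libraries. Cxcr4 reads outnumbered Ackr3 reads in every VC library and Ackr3 reads outnumbered Cxcr4 reads in every AP library. This ratio was chosen after its values were seen and is a description without a test. Per kb of exon, the order also changed, with 97.5 normalized counts for Cxcr4 and 29.8 for Ackr3 in the VC group against 44.3 and 89.0 in the AP group, while Cxcl12 had 77.7 and 86.5.

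Genes that act with the family were counted from 3 lists. Of 16 other chemoattractants and their receptors tested, 0 passed the adjusted threshold in limma, and S1pr1, a receptor for a lipid attractant, met the unadjusted criteria (1.68, SE 0.50). Of 31 genes of signalling below the receptors, 5 were higher and 2 lower, where 6.33% and 4.0% of all genes were. Rgs1, a brake on G protein signals of chemokine receptors, had VC values of 0, 16.3, 10.9 and 7.50 and AP values of 68.2, 43.1, 56.8 and 52.2, and rose by 3.10 (SE 0.77, adjusted p = 0.0313) with groups apart. The inhibitory G protein genes Gnai1 and Gnai3 rose by 0.86 (SE 0.22) and 0.70 (SE 0.16), the kinase Ptk2b by 0.85 (SE 0.22) and the beta-arrestin gene Arrb1 by 0.68 (SE 0.19). The other beta-arrestin gene, Arrb2, fell by 0.87 (SE 0.23) and the G protein gene Gnb2 fell by 0.51 (SE 0.14), but with total reads as the scale Gnb2 was above 0, like 30 of the 31 genes, against 18 with the deposited scaling. The beta-arrestin genes thus lay on opposite sides of 0, and the list's median was 0.09, against 0.06 over all genes.

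Of 22 inducers of chemokines and NF-kB genes tested, 4 were higher and 1 lower, where 6.33% and 4.0% of all genes were, with a median of 0.52 against 0.06 over all genes. Tnfaip3, a feedback inhibitor of NF-kB, had VC values of 30.9, 17.7, 47.8 and 16.9 and AP values of 147, 122, 153 and 109. The groups were far apart, and Tnfaip3 rose by 2.30 (SE 0.36, adjusted p = 0.00843). Nfkbia, the inhibitor that holds NF-kB in the cytoplasm, had VC values of 313, 362, 531 and 401 and AP values of 725, 879, 598 and 588, all AP above all VC, and rose by 0.80 (SE 0.20, adjusted p = 0.0309). Nfkb1 and the cytokine receptor gene Il4ra rose by 0.59 (SE 0.16) and 0.70 (SE 0.18). Irf7, an interferon-response factor, had VC values of 446, 479, 447 and 1408 and AP values of 236, 284, 160.4 and 173, and fell by 1.54 (SE 0.35, adjusted p = 0.0240). Among the cytokines, Tnf, Il1a and Il1b did not pass, with adjusted p from 0.240 to 0.510, and Il6, at 0 reads in 3 VC libraries, had an adjusted p of 0.0554.

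Markers of the cells that carry or release chemokines were counted beside these results, and their part in them was not tested. Over all genes, 6.33% were higher and 4.0% lower. Of 9 markers of blood and lymphatic endothelium, where Ackr1 is made, 3 were higher and 0 lower. Their summed normalized counts, VC libraries first, were 1119, 829, 1491 and 1654 against 2698, 6114, 2316 and 2394, led by Pecam1, with AP.2 highest. Ackr1 was also highest in AP.2 (237) but nearly as high in AP.1 (227), where the endothelial sum was 2698. Of 11 suprabasal keratinocyte markers 10 were higher, with sums of 5927, 12684, 8677 and 5571 against 43726, 41559, 121993 and 171912, led by Krt10. Of 7 basal keratinocyte markers 3 were higher and 0 lower, with sums of 28878, 82599.8, 52055 and 24681 against 54637, 54592, 101778 and 145127, led by Krt14.

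Of 12 macrophage and monocyte markers 0 passed and all lay below 0, of which 7 turned above 0 with total reads as the scale, with sums of 19564, 10192, 8829 and 26074 against 12240.5, 8254, 5939 and 6233, led by Lyz2. VC.1 and VC.4 were high in this sum as in Ccl6 and Ccl8. Of 7 pan-leukocyte markers 0 passed and 6 lay below 0, or none with total reads as the scale, with sums of 2398, 2017, 1925 and 4178 against 2711, 1954, 1618 and 1666, led by Laptm5. Of 5 neutrophil markers tested, S100a9 alone was higher, and it is also made by keratinocytes. The sums were 129, 112, 95.6 and 133 in the VC libraries and 76.9, 318, 232 and 579 in the AP libraries, led by S100a8, and the defining genes Retnlg and Ngp had 0 reads in 3 VC libraries each. Of 11 Langerhans and dendritic cell markers Cd207 alone was higher, with VC values of 47.3, 28.1, 42.3 and 52.5 and AP values of 123, 79.8, 129.5 and 294. AP.4 was highest in Cd207 as in Ccl22, and the list's sums were 13727, 7380.0, 6151 and 18945 against 10705, 7014, 7248 and 8399, led by H2-Ab1.

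Of 14 T and NK cell markers tested, Trdc, which marks gamma delta T cells, alone was higher (1.86, SE 0.52), with sums of 1581, 1541, 1880.2 and 1796 against 1915, 1447, 1644 and 1757 that were led by Thy1, a gene fibroblasts also express. Of 7 mast cell markers tested, Mcpt4 and Tpsb2 were lower (-1.08, SE 0.26 and -1.39, SE 0.39), with sums of 1186, 752, 702 and 1346 against 649.8, 703, 469 and 383, and Mrgprb2 had 0 reads in every VC library. Of the other lists, 3 of 5 melanocyte markers and 1 of 8 skeletal muscle markers were lower, 1 of 5 red blood cell markers was higher, and 0 of 9 fibroblast, 0 of 7 adipocyte and 0 of 2 B cell markers passed. With total reads as the scale, the melanocyte genes Dct and Tyrp1 turned above 0, and the list's median went from -1.35 to -0.48. That scale also turned 2 B cell, 4 fibroblast, 3 adipocyte, 1 skeletal muscle and 1 red blood cell marker above 0. Sums of the melanocyte list, led by Dct, were 4222, 3189, 3763 and 1313 against 1212, 1463, 1943 and 1111, and those of the fibroblast list, led by Col1a1, were 122763, 83169, 85062 and 225231 against 256644, 190670.0, 137906 and 99602. Adipocyte sums, led by Car3, were 30784, 11940.4, 13212 and 20569 against 19242, 29057, 12579 and 10698, red blood cell sums, led by Hbb-bs, 780.4, 507, 905 and 553 against 1077, 1550, 683 and 752, and B cell sums, led by Ighm, 513, 396, 330.4 and 598 against 326, 435, 338 and 210.3. Skeletal muscle sums, led by Acta1, were 44931, 65168, 32360 and 35157 in the VC libraries and 56501, 8548, 5051 and 11201 in the AP libraries, with AP.1 at the VC level. In CPM, counted over reads outside mitochondrial genes, all 51 members summed to 1373, 967, 872 and 1575 in the VC libraries and 1375, 1198, 907 and 945 in the AP libraries, so that the family as a whole took an overlapping share in both groups.

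These results rest on 4 libraries per group at 1 time point, without protein or cell counts. VC libraries had fewer reads outside mitochondrial genes, so that members with few reads there, Cxcl1, Cxcl2, Ccr4 and Cxcr6 among them, have uncertain folds. The mitochondrial share was 42.1% to 54.3% in VC libraries and 5.32% to 11.1% in AP libraries. Differences that go with this share and differences that go with alpinetin cannot be told apart for any member, Ackr3 and Cxcr4 included. The calls for Cxcl1, Cxcl2, Cx3cl1 and Cxcr4 were lost in some fits with 1 library left out, while their differences kept their direction. Absolute mRNA amounts were not measured, and with total reads as the scale no member was called lower. Sorted leukocytes and keratinocytes, in situ detection of Ackr3 and Cxcr4, and protein measurements of Cxcl1, Cxcl2 and Cxcl12 would be needed to place these differences in cells.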

How the data were processed

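The authors aligned reads to mm10 with STAR and compared the groups with DESeq2. Their methods name featureCounts for counting, while the submitters' processing notes name HTSeq, so the counter was not settled. The deposited signal values are read counts divided by a size factor per library, and all 150160 were whole multiples of 1 read within 0.01, so the reads could be recovered. The authors' mean and their own comparison (log2 fold change and its SE, a Wald score, p-value and adjusted p-value, all deposited) were not used. Column names match no sample title in full: VC.1, VC.2 and VC.3 share only a digit with VC titles, and VC.4 and the AP columns share no number. Columns were therefore tied to groups and not to single mice.

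log2(value + 1) was fitted with limma 3.58.1 in R 4.3.3 (empirical Bayes, intensity trend) on the 15964 genes that reached 3 normalized counts in 4 or more libraries, adjusted over all of them by Benjamini-Hochberg. Fold changes are on this scale, and those of genes with few reads or with libraries at 0 depend on the added 1. P-values set the difference between the groups against the spread between libraries within a group, with 4 libraries in each. edgeR 4.0.16, DESeq2 1.42.0 and voom were run on the recovered reads as alternatives. With 4 against 4 libraries, the smallest two-sided exact permutation p over 70 assignments is 0.0286. Exon lengths and overlaps came from GENCODE M21, which held 18766 of the gene identifiers. It held 10 further genes with a family name, Ccl21a, Ccl21b, Ccr3 and Cxcl11 among them. These were not among the 18770 genes listed and could not be analysed. Members named with all values were those called by either rule, those with groups apart and the 2 highest of each role, 21 in all, of which 1 is not reported here; Ccl5, Ccl19, Ackr2 and the Ackr3 ratio were chosen after their values were seen. The members and lists were chosen with earlier results of these data known.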

Additional observations from a re-analysis of the deposited data

Results flagged for a closer look

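In 3 of 42 groups of 4 libraries, over the 21 members chosen to be named with all values, 1 library stood far from the other 3 of its group on the log2 scale by Dixon's ratio; chance gives about 1 in 20 such groups. Cx3cl1 had 50.6 normalized counts in VC.4, above the other VC libraries and below every AP library, and without it the difference in Cx3cl1 went from 0.99 to 1.11. Cxcr2 had 0 reads in VC.3, the lowest of the VC libraries, and without it the difference in Cxcr2 went from 1.53 to 0.66. Ackr4 had 298.5 normalized counts in VC.2, the highest of the VC libraries, and without that library the difference in Ackr4 was called (adjusted p = 0.0356, in a range from 0.00200 to 0.245 over its alternatives).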

How the results depend on the processing

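At an adjusted p under 0.05, the 4 higher members became 19 with total reads as the scale, 6 with DESeq2, 3 with edgeR, voom, no filter or reads drawn down and 2 in limma without the trend, and between 1 and 4 with 1 library left out. The 1 lower member became 0 with total reads and 3 with DESeq2, and between 0 and 2 with 1 library left out. By the unadjusted criteria, the 6 higher members became 13 with total reads and between 4 and 7 with 1 library left out. The 1 lower member became 0 with total reads, 3 with DESeq2 and 2 with voom, and between 1 and 2 with 1 library left out. Over the 21 members chosen to be named, 397 of 439 recomputed differences stayed on the same side of the adjusted threshold, 25 lost the call, 17 gained it and 0 called ones turned sign. The cause of these changes was not tested, except that total reads hold the mitochondrial share that differs between the groups and that fits without a library rest on fewer samples. Without AP.2, AP.3 or AP.4, the calls over all genes also fell, to 398, 209 and 254 higher and 155, 94 and 139 lower. Drawing the reads outside mitochondrial genes down to 3080758 per library left 40 members tested. In limma on these reads Cxcl1 (3.08, adjusted p = 0.0296) and Cxcl2 (2.70, adjusted p = 0.0291) kept their calls, as did Ackr3 and Cxcr4. Cx3cl1 lost its call (0.0669), and Ccr4 and Cxcr6 were not called. No paired analysis was run because the columns could not be tied to single mice. How far the lower depth of the VC group limits the results for rare members was not tested beyond drawing the reads down.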
